A study of Mus musculus with 4 samples.

Results

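The genes described here are 8 effector genes of cytotoxic lymphocytes: the granzymes Gzma, Gzmb, Gzmc and Gzmk, the pore-forming protein Prf1, the granule protein Nkg7, and the secreted proteins Ifng and Xcl1. They are 8 of the 32285 genes in the RNA matrices and were chosen by name after their levels in these data were known, so their high level in lymphocyte nuclei is given as a description. RNA and open chromatin (ATAC-seq) were read from the same nuclei by 10x Multiome, with 1 library from mice before the diet (D0) and 1 library from mice fed DDC for 5 days (D5). DDC is a porphyrinogenic compound that injures the small bile ducts and made up 0.1% of the chow. All mice were C57BL/6J, wild type, and, by the study's methods, young adult males, and how many mice each library held was not given in the sources used here. Liver cells were sorted for CD45 and CD11c and against CD64 before the nuclei were isolated, so the lymphocytes described are those that passed a gate set on CD11c.

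Cytotoxic lymphocytes store granzymes, which are serine proteases, together with perforin in granules that are released onto a target cell. Perforin opens the membrane of the target, granzyme B cleaves caspases, and Nkg7 takes part in the release of the granules. Interferon gamma, encoded by Ifng, activates antigen presentation in neighbouring cells, and Xcl1 is the chemokine that draws cDC1 (type 1 conventional dendritic cells) through the receptor Xcr1. In the liver these genes are known from natural killer (NK) cells, tissue-resident innate lymphocytes and T cells.

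Gzmb and Gzmc lie in one granzyme cluster on chromosome 14, with start sites at position 56262260 and 56234656 of the mm10 build in the files, both on the minus strand. Gzma (chromosome 13, 113100971 to 113100981) and Gzmk (chromosome 13, 113180897 to 113225908) also lie on the minus strand, the latter with an interval of starts of 45012 bases in the files. Prf1 (61297833 to 61299801) and Ifng (118441046) lie on the plus strand of chromosome 10, Nkg7 (43437073 to 43437130) on the plus strand of chromosome 7, and Xcl1 (164935527) on the minus strand of chromosome 1. The 250 bases upstream of the RefSeq start are shown for the pair of neighbouring granzymes and for Ifng. They were picked because the RNA of Gzmc and Ifng differed most between the days and that of Gzmb differed little in the same nuclei. For Gzmb the RefSeq start lies upstream of the start in the files. Its interval therefore begins at 56262335 and not next to 56262260. The letters are RefSeq's (GRCm38.p6, the same assembly as mm10), 5′ to 3′ on the gene's strand, and capitals mark matches to the searched motifs on either strand. The intervals are chr14:56262335-56262584 (minus) for Gzmb, chr14:56234658-56234907 (minus) for Gzmc and chr10:118440796-118441045 (plus) for Ifng.
Gzmb: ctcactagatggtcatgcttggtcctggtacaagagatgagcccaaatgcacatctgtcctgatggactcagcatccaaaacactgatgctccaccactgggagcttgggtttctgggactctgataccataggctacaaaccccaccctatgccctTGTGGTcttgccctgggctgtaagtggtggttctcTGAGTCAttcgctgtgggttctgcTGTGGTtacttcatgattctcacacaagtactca
Gzmc: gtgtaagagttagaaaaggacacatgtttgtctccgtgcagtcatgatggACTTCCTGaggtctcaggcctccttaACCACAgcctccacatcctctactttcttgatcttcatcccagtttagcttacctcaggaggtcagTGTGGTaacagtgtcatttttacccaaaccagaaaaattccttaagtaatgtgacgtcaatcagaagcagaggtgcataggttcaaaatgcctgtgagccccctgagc
Ifng: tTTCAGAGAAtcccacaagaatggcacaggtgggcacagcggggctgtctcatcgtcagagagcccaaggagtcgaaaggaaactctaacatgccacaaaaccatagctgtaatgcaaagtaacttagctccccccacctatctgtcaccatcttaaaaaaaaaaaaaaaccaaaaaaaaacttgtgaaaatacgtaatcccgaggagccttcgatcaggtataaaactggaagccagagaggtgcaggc

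All 8 genes were matched by symbol to the RefSeq promoter table. On both strands 5 motifs were searched in the 300 bases around the RefSeq start (250 before it and 50 after), from which positions are counted. The Runx letters TGTGGT were held by 6 of the 8 promoters and by 16.8% of all 32851 promoters, at 2 places in Gzmb (from −93 and −34, counted from the start) and at 2 in Gzmc (from −174 and −108). The ETS letters CAGGAAGT were held by Gzmc, Prf1 and Xcl1 (3.33% of all promoters), and the AP-1 letters TGANTCA by Gzmb only (7.81%). The STAT letters TTCNNNGAA were held by Gzmb, Nkg7 and Ifng (8.30%), in Gzmb downstream of the RefSeq start and so outside the letters shown. The T-box letters AGGTGTNA were held by Nkg7 only (3.03%). A match describes letters and no binding, and the Ifng promoter held none of these motifs besides the STAT letters.

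Raw counts of UMIs (unique molecular identifiers, 1 for each captured transcript) were used, and levels are given as CPM, the UMIs of a gene per 1e6 UMIs of all nuclei of a class. After filters and the removal of 3303 and 6774 likely doublets, 10975 nuclei at D0 and 19859 at D5 remained. The 16260 and 27873 called barcodes had 591 barcode sequences in common between the libraries. Classes were named from marker genes after clustering without the effector genes and without the genes of the lists used below, and carry the ending "-like". With 1 library per day there is no replicate, so no test was made, and each 95% interval (in parentheses or after "interval") covers counting error only. Day and library cannot be told apart. Barcodes with 10 to 100 UMIs that were not called as nuclei (28427 at D0 and 205836 at D5) are referred to as low-count barcodes and give the level of free RNA.

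The NK cell-like class (1417 nuclei at D0, 1090 at D5) carried its markers Ncr1 (648 and 522 CPM) and Klrb1c (629 and 577 CPM), and Cd3e of the T cell receptor complex was at 4.64 and 3.77 CPM. Eomes, the factor that marks conventional NK cells, was near absent with 17 UMIs on each day (8.76 and 8.01 CPM). Itga1, which tissue-resident group 1 innate lymphocytes carry, was at 498 and 232 CPM. Cxcr6 and Il7r, markers on the list for these resident cells, were at 505 and 385 CPM and at 126 and 173 CPM. Resident innate lymphocytes were not among the classes that could be named. The name NK cell-like therefore does not separate them from conventional NK cells. The T cell-like class (362 and 431 nuclei) carried Cd3e (418 CPM on both days), Trdc of the gamma-delta receptor (334 and 371 CPM), Trac of the alpha-beta receptor (308 and 202 CPM) and Cd8a (273 and 296 CPM), with Cd4 at 13.1 and 3.42 CPM. It also carried NK cell markers, with Ncr1 at 280 and 206 CPM. The markers of the NK cell list summed to 5057 and 4120 CPM there and to 5978 and 4918 CPM in NK cell-like nuclei. Those of the T cell list summed to 4148 and 4001 CPM and to 2031 and 1786 CPM. The name T cell-like therefore does not mean nuclei without NK cell markers. Further nuclei with lymphocyte markers (718 at D0 and 138 at D5) lay in 2 clusters that stayed unnamed and were not compared. The dendritic classes were cDC1-like (1777 and 3002 nuclei), cDC2-like (type 2 conventional dendritic cells with preDC-like nuclei, 1987 and 7042), Ccr7+ DC-like (mature dendritic cells, 308 and 949) and pDC-like (plasmacytoid dendritic cells, 2326 and 2037).

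Among the granzymes, Gzmc stood apart in NK cell-like nuclei. It was at 298 CPM at D0 (275 to 324) and at 1838 CPM at D5 (1781 to 1897), a 6.16-fold higher level with a log2 ratio of 2.62 (interval 2.50 to 2.75). Gzma was at 3014 CPM (2938 to 3093) and 2889 CPM (2817 to 2963), and Gzmb at 2476 CPM (2406 to 2547) and 2263 CPM (2199 to 2328). Gzmb and Gzma therefore differed by less than 1.1-fold between the days while their family member Gzmc differed more than 6-fold, as the plot of levels by class and day shows. Gzmk was listed with 3 UMIs at D0 and 1 UMI at D5 in this class, at or under the floor of 3 counts, and no ratio is given.

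T cell-like nuclei held Gzmc at 44.8 CPM at D0 (28.7 to 66.7, 24 UMIs) and at 499.7 CPM at D5 (454 to 549, 439 UMIs), an 11.2-fold higher level (log2 ratio 3.48, interval 2.89 to 4.14). Gzmb was at 3203 CPM (3054 to 3359) and 3612 CPM (3487 to 3740), with a log2 ratio of 0.17 (interval 0.09 to 0.26). Gzma was at 2600 CPM (2466 to 2741) and 2438 CPM (2336 to 2544), and its interval of the log2 ratio, −0.19 to 0.01, included 0. Gzmk, the granzyme of some memory T cells, had 10 and 9 UMIs (18.7 and 10.3 CPM). Here again Gzmc was higher at D5, while Gzma and Gzmb lay within 1.13-fold of their D0 level and Gzmk had too few UMIs to compare.

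**Figure D1:**
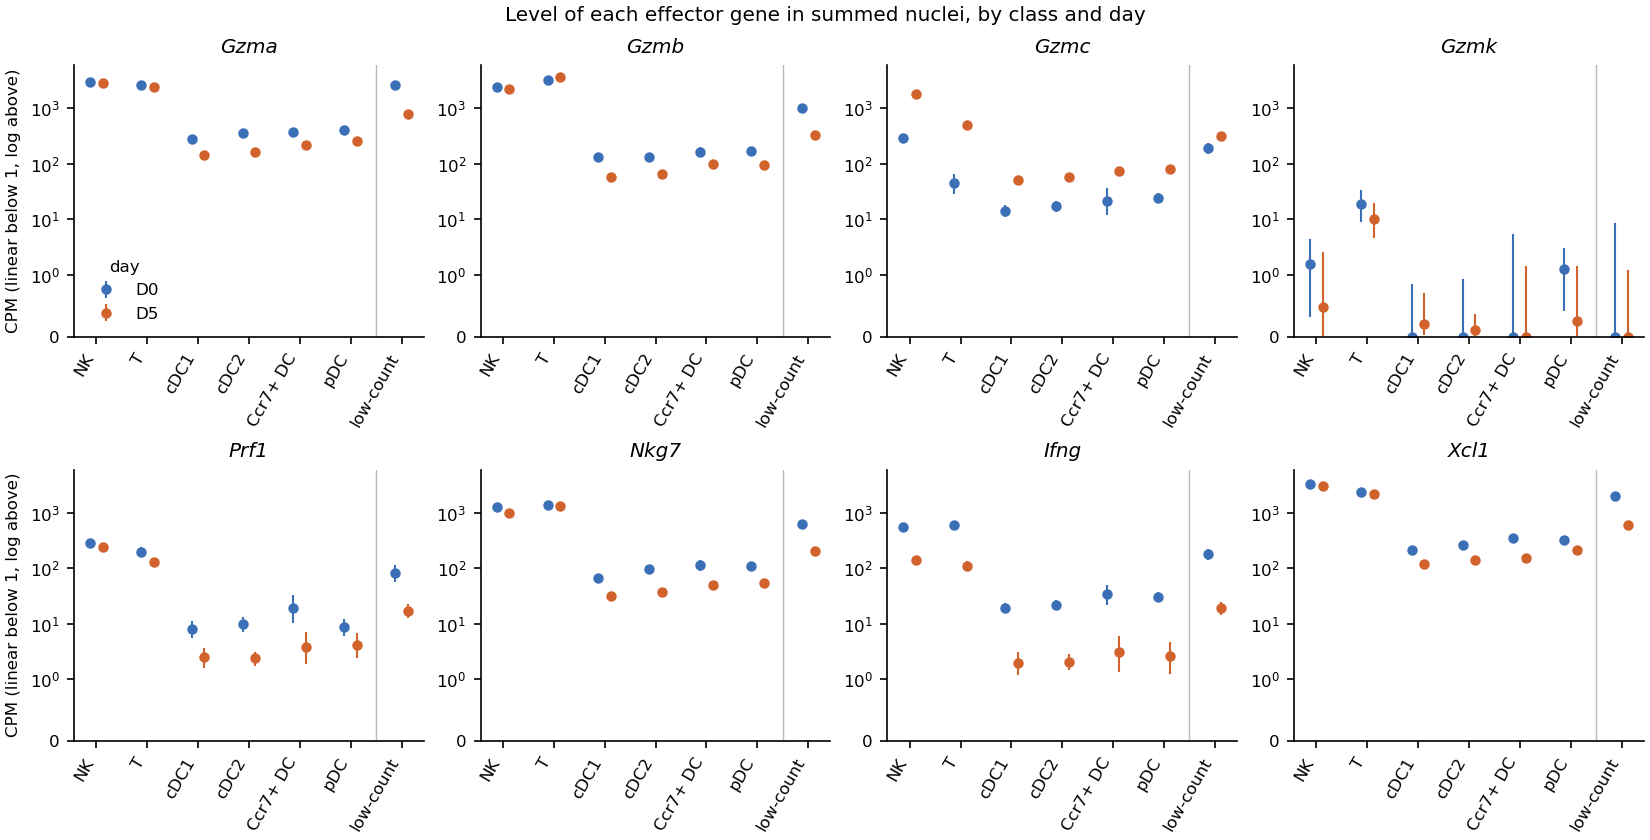
CPM of each effector gene (vertical axis, linear below 1 and logarithmic above) in the summed nuclei of 6 classes and in low-count barcodes, with D0 in blue and D5 in orange; bars are 95% counting intervals of 1 library per day. Gzmc is at 298 CPM at D0 and 1838 CPM at D5 in NK cell-like nuclei, and in each dendritic class every gene but Gzmk lies below its level in the low-count barcodes of the same day.

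Perforin was close to its D0 level in NK cell-like nuclei. The granule protein Nkg7 was 1.28-fold lower there at D5 (log2 ratio −0.36, interval −0.45 to −0.28). Prf1 was at 278 CPM (255 to 303) and 245 CPM (224 to 267), and Nkg7 at 1284 CPM (1234 to 1336) and 999.7 CPM (958 to 1043). Prf1 in T cell-like nuclei was at 198 CPM (162 to 239) and 129 CPM (106 to 155), a log2 ratio of −0.62 (interval −1.02 to −0.23). In T cell-like nuclei with at least 2000 UMIs the ratio was −1.22, and 2 of 7 genes were then at least 2-fold lower. The share of all genes in that setting is not given here. Nkg7 was at 1372 CPM (1275 to 1475) and 1298 CPM (1223 to 1375) in T cell-like nuclei.

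The secreted proteins went apart. Ifng in NK cell-like nuclei was at 553 CPM at D0 (520 to 587) and at 142 CPM at D5 (126 to 159), a 3.90-fold lower level (log2 ratio −1.96, interval −2.15 to −1.78). T cell-like nuclei held it at 589.9 CPM (527 to 659) and 112 CPM (90.6 to 136), a 5.29-fold lower level (log2 ratio −2.40, interval −2.74 to −2.07). Xcl1 was at 3259 CPM (3179 to 3341) and 3062 CPM (2988 to 3137) in NK cell-like nuclei and at 2345 CPM (2217 to 2478) and 2151 CPM (2056 to 2251) in T cell-like nuclei. Both lymphocyte classes thus had less Ifng and more Gzmc RNA at D5, with Gzma and Xcl1 within 1.1-fold of D0 in each.

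Over the 7 effector genes with at least 20 UMIs over both days, the median log2 ratio in NK cell-like nuclei was −0.13, beside −0.16 over the 10191 genes with as many UMIs. A ratio of at least 2-fold was reached by 1 of 7 upwards (Gzmc), beside 1.56% of all genes, and by 1 of 7 downwards (Ifng), beside 4.94%. In T cell-like nuclei the median was −0.09, beside −0.14 over 7714 genes, with 1 of 7 at least 2-fold higher (Gzmc, beside 2.61%) and 1 of 7 at least 2-fold lower (Ifng, beside 4.78%). In NK cell-like nuclei 0.118% of the genes had a ratio as high as Gzmc or higher and 0.412% one as low as Ifng or lower. TMM scaling shifted all ratios by 0.19 in NK cell-like and 0.20 in T cell-like nuclei, which turned the sign for Gzma, Gzmb, Prf1 and Xcl1 in NK cell-like nuclei (log2 ratios of 0.13, 0.060, 0.0058 and 0.10). Of the 7, Gzmc, Ifng and Nkg7 (−0.17) kept their sign there. In T cell-like nuclei it turned for Gzma, Nkg7 and Xcl1 (0.10, 0.12 and 0.073).

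**Figure D2:**
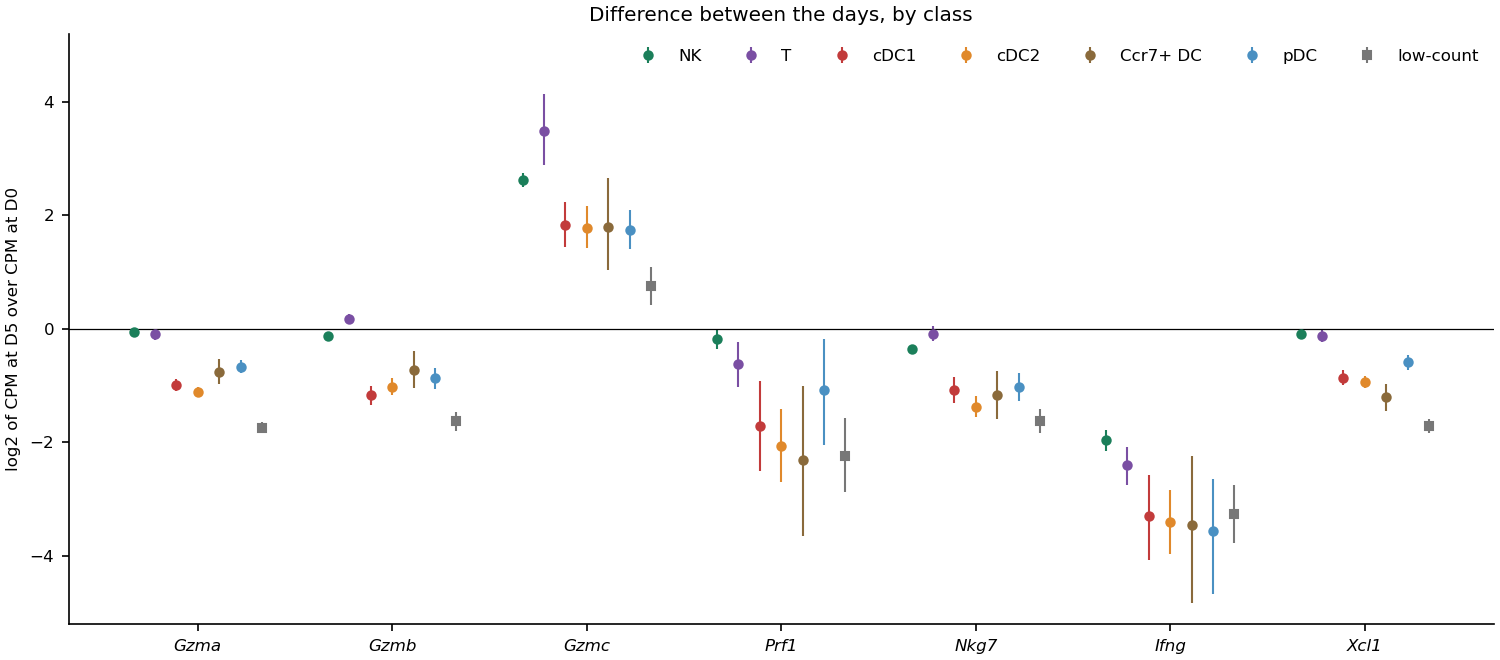
Log2 ratio of CPM at D5 over D0 for 7 effector genes (Gzmk had too few UMIs) in 6 classes and in low-count barcodes, with 95% counting intervals; a value of 0 means the same level on both days. Gzmc is above 0 and Ifng below 0 in every class, while Gzma, Gzmb and Xcl1 lie near 0 in NK and T cell-like nuclei and between −0.59 and −1.21 in the dendritic classes.

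The classes were also compared within a day. Gzmc was 6.66-fold higher in NK cell-like than in T cell-like nuclei at D0 (log2 ratio 2.74, interval 2.15 to 3.39) and 3.68-fold higher at D5 (1.88, 1.74 to 2.02). Gzmb was higher in T cell-like nuclei, by 1.29-fold at D0 and 1.60-fold at D5. Xcl1 was 1.39-fold and 1.42-fold higher in NK cell-like nuclei, and Prf1 1.41-fold and 1.90-fold. The levels of Nkg7 and Ifng in NK and T cell-like nuclei did not differ beyond counting error at D0. At D5 Nkg7 was 1.30-fold higher in T cell-like nuclei and Ifng 1.27-fold higher in NK cell-like nuclei.

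The share of nuclei with a UMI shows how the levels were spread over nuclei. Since nuclei at D5 held more UMIs (a median of 1723 against 1214 in the NK cell-like class), each nucleus was thinned to 1000 UMIs. A Gzmc UMI was then found in 14.3% of NK cell-like nuclei at D0 (12.5 to 16.3) and in 50.6% at D5 (47.5 to 53.6), and without thinning in 17.4% and 60.7%. In T cell-like nuclei the thinned share was 4.14% (2.34 to 6.74) and 25.3% (21.3 to 29.7). In pDC-like nuclei, shown for the background, it was 2.67% (2.05 to 3.40) and 8.10% (6.95 to 9.37), so the T cell-like share at D0 was not distinguishable from this background at this depth. NK cell-like nuclei with 6 or more Gzmc UMIs after thinning numbered 13 of 1417 at D0 and 110 of 1090 at D5.

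In NK cell-like nuclei the share with a Gzmc UMI and the share with many were thus both higher at D5 at matched depth. For Ifng the thinned share was 27.6% (25.3 to 30) at D0 and 10.1% (8.37 to 12.0) at D5 in NK cell-like nuclei, and 27.6% (23.1 to 32.5) and 9.28% (6.71 to 12.4) in T cell-like nuclei, beside 2.92% and 0.196% in pDC-like nuclei. For Gzma in NK cell-like nuclei the share was 71.6% (69.1 to 73.9) and 59.3% (56.3 to 62.2), whereas its CPM differed by 1.04-fold. The median nucleus of that class held a UMI of 4 of the 8 genes at D0 and of 3 at D5 after thinning. Of pDC-like nuclei, a dendritic class, 81.1% at D0 and 70.6% at D5 held at least 1 UMI of the 8 genes before thinning, at medians of 1540 and 1743 UMIs. A UMI was thus found in most nuclei of a class with low levels. Of pDC-like nuclei 121 of 2326 at D0 and 46 of 2037 at D5 held 5 or more UMIs of the 8 genes, against 89.6% and 89.7% of NK cell-like nuclei.

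**Figure D3:**
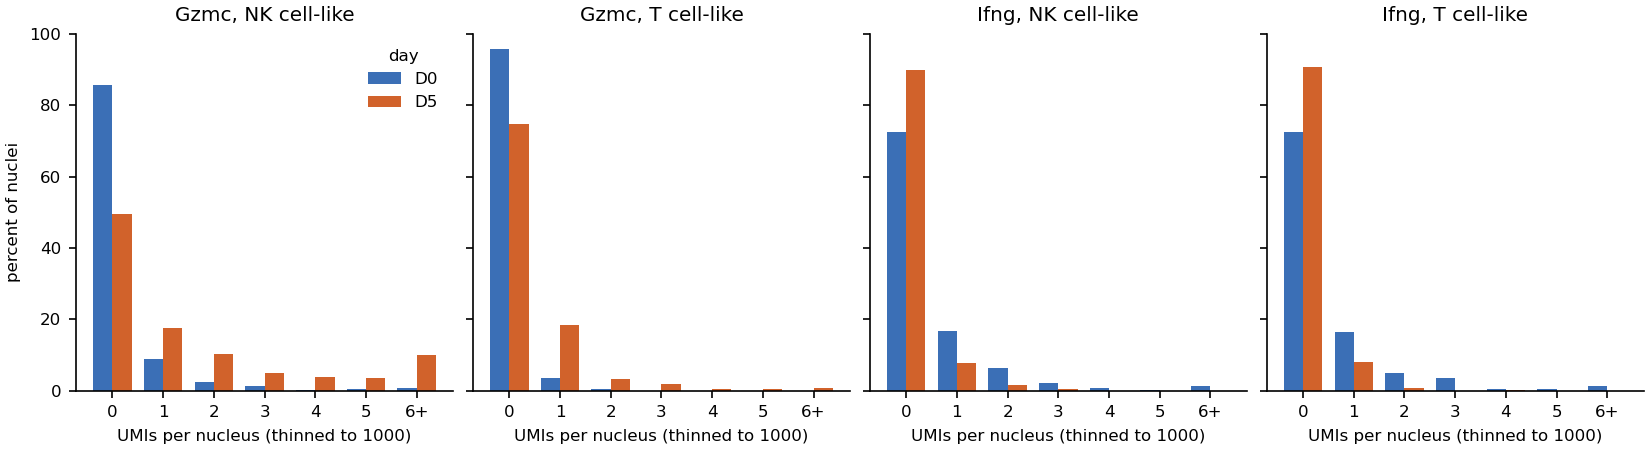
Percent of nuclei (vertical axis) by the number of Gzmc or Ifng UMIs per nucleus after thinning every nucleus to 1000 UMIs (horizontal axis), in NK and T cell-like nuclei, with D0 in blue and D5 in orange. For Gzmc the bar at 0 is lower at D5 and nuclei with 1 or more UMIs reach 50.6% in the NK cell-like class; for Ifng the bar at 0 is higher at D5.

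The lymphocyte nuclei were clustered again without the effector genes into 6 subclusters, of which the 4 with more than 200 nuclei in all and no dendritic or cell cycle markers are described. In the subcluster led by Ccl1, Mdk and Csf2 (447 nuclei at D0, 647 at D5) Gzmc was at 404 and 2290 CPM (log2 ratio 2.50, interval 2.31 to 2.70). In the one led by Tent5d and Cd200r3 (745 and 230 nuclei) it was at 218 and 1706 CPM (2.97, 2.74 to 3.20). The one with T cell markers (296 and 374 nuclei) had 71.9 and 454 CPM (2.66, 2.10 to 3.27). Gzmc was thus higher at D5 in each of these 3, and the intervals of the first and the second did not overlap.

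The subcluster led by Klra4, Dhrs3 and Klra8 (218 and 165 nuclei) differed from these. It had the highest Eomes level of the 6 (54.9 and 43.5 CPM, from 17 and 13 UMIs) and high Il7r (333 and 582 CPM). Itga1 (277.9 and 140.5 CPM) and Cxcr6 (361.9 and 167.3 CPM), which resident cells also carry, were lower there than in each of the other 3. Gzmc there was at 281 and 388 CPM, a log2 ratio of 0.47 (interval 0.05 to 0.88) that does not overlap the intervals of the other 3. Gzma was at 1577 and 849.7 CPM (−0.89, −1.12 to −0.67), Gzmb at 1674 and 689 CPM (−1.28, −1.52 to −1.04) and Xcl1 at 5044 and 2730 CPM (−0.89, −1.01 to −0.76), ratios lower than in each of the other 3. Ifng was lower at D5 in all 4, with log2 ratios from −2.28 to −2.04. A subcluster of 56 and 75 nuclei raised 7 of 10 cDC2 markers, and without it the NK cell-like median moved from −0.13 to −0.12.

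In dendritic nuclei all 8 genes were low. Gzma ranged over the 4 dendritic classes from 280.5 (cDC1-like) to 413 CPM (pDC-like) at D0 and from 142 to 260 CPM at D5, so that NK cell-like nuclei held 7.3-fold to 10.7-fold more at D0 and 11.1-fold to 20.4-fold more at D5. Gzmc ranged from 14.4 to 24.4 CPM at D0 and from 51.3 to 82.2 CPM at D5. Ifng ranged from 19.3 to 33.5 CPM and from 1.97 to 3.07 CPM. Gzmk had between 0 and 5 UMIs in each dendritic class and day.

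The log2 ratio of Gzmc between the days was 1.83 (1.45 to 2.23) in cDC1-like, 1.79 (1.43 to 2.16) in cDC2-like, 1.79 (1.03 to 2.65) in Ccr7+ DC-like and 1.75 (1.42 to 2.10) in pDC-like nuclei. The other genes varied more over the classes, as with Xcl1 at −0.59 (−0.72 to −0.46) in pDC-like and −1.21 (−1.44 to −0.97) in Ccr7+ DC-like nuclei, and Gzma at −0.67 (−0.78 to −0.55) in pDC-like and −1.12 (−1.21 to −1.02) in cDC2-like nuclei. Gzmc was at least 2-fold higher in all 4 and was the only 1 of 7 effector genes to be so, beside 0.863% of all genes in cDC1-like, 1.89% in cDC2-like, 5.18% in Ccr7+ DC-like and 1.62% in pDC-like nuclei. At least 2-fold lower were 4 of 7 in cDC1-like (8.55% of all genes), 5 of 7 in cDC2-like (8.44%), 4 of 7 in Ccr7+ DC-like (5.27%) and 3 of 7 in pDC-like nuclei (3.49%), in each case with Ifng, Prf1 and Nkg7 among them. After TMM scaling the counts were 2 (4.50% of all genes), 3 (5.17%), 4 (3.74%) and 1 (2.56%), with Ifng in all 4 classes, and Ifng alone in pDC-like nuclei. In nuclei with at least 2000 UMIs 3 of 7 were at least 2-fold lower in cDC1-like nuclei, where Nkg7 (−0.92) missed it, and 3 of 7 in cDC2-like nuclei, where Gzma (−0.91) and Gzmb (−0.84) missed it. Gzmb in cDC2-like nuclei (−0.97) also missed it without nuclei with 2 lymphocyte markers. Nkg7 in pDC-like nuclei (−0.99) missed it at a Leiden resolution of 0.5. Gzma in cDC1-like nuclei reached it without the removal of doublets (−1.01) and at that resolution (−1.001). Gzmb in Ccr7+ DC-like nuclei reached it with thinning (−1.22 in place of −0.72). Without the removal of doublets Prf1 in Ccr7+ DC-like nuclei, which rests on 13 and 10 UMIs, was at −0.95 in place of −2.30 and Xcl1 at −0.94 in place of −1.21, which leaves 2 of 7 (Nkg7 and Ifng) at least 2-fold lower in that class. Without nuclei with 2 lymphocyte markers Xcl1 (−0.91) and Nkg7 (−0.90) missed 2-fold there, and Prf1 and Ifng had too few UMIs. Shares of all genes are given for the main setting and TMM scaling only, so the counts under the other alternatives stand without one. The medians over the effector genes were −1.08, −1.12, −1.17 and −0.87, beside −0.23, −0.14, −0.06 and −0.12 over all genes of these classes. In macrophage-like nuclei Gzmc had a log2 ratio of 1.81 (0.98 to 2.79).

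The low-count barcodes bear on these values directly. They held Gzma at 2666 CPM at D0 and 800.1 CPM at D5, Gzmb at 1033 and 334 CPM, Xcl1 at 1962 and 598 CPM, Nkg7 at 635 and 207 CPM and Prf1 at 80.9 and 17.2 CPM. Ifng was at 180.2 and 18.9 CPM and Gzmc at 192 and 323 CPM. The free RNA thus held 9.55-fold less Ifng and 1.68-fold more Gzmc at D5, beside 3.36-fold to 3.55-fold more Gzmc in the dendritic classes. For Gzma, Gzmb, Xcl1 and Nkg7 the log2 ratio was also lower in low-count barcodes (−1.74, −1.63, −1.71 and −1.62) than in every dendritic class. For Ifng it was −3.26 there, above the −3.57 to −3.29 of the dendritic classes. For Prf1 it was −2.23, above the Ccr7+ DC-like value only (−2.30). Of 56 levels compared (7 genes, 4 dendritic classes, 2 days), 0 were above the level in low-count barcodes of the same day. In cDC2-like nuclei the levels were between 8.94% and 15.1% of the low-count level at D0 and between 10.9% and 23.2% at D5, and in pDC-like nuclei between 10.8% and 17.0% and between 13.7% and 36.1%. The NK cell marker Ncr1 was at 24.5 CPM in cDC2-like nuclei and 187 CPM in low-count barcodes at D0, and at 7.29 and 44.0 CPM at D5. Cd3e was likewise below its low-count level in cDC2-like nuclei, at 3.53 against 27.7 CPM at D0 and at 2.31 against 8.94 CPM at D5. Klrk1, an activating receptor in the NK cell list, was at D5 at 205 CPM in cDC2-like, 238 CPM in cDC1-like and 205 CPM in Ccr7+ DC-like nuclei, above its 149 CPM in low-count barcodes, and at 57.1 CPM in pDC-like nuclei. At D0 its level was below the 261 CPM of low-count barcodes in all 4 dendritic classes (52.7 to 234 CPM). In cDC2-like nuclei the summed NK cell list was at 839 and 1135 CPM and the summed T cell list at 119.7 and 56.3 CPM. The lymphocyte markers together were at 27.9% of their low-count level at D0 and 68.9% at D5 in that class. The effector genes were at 13.4% and 20.5%. Klrk1 alone gave 722 of the 1213 UMIs of these markers at D0 and 4085 of 5138 at D5. The part of these markers in the result was not tested.

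Some proportions between the genes in dendritic nuclei were near those of the low-count barcodes and others were not. At D0 there were 2.58 Gzma UMIs per Gzmb UMI in low-count barcodes, 2.15 to 2.63 in the dendritic classes, 1.22 in NK cell-like and 0.812 in T cell-like nuclei. At D5 the values were 2.39 in low-count barcodes, 2.21 to 2.75 in the dendritic classes, 1.28 in NK cell-like and 0.675 in T cell-like nuclei. Per Gzma UMI there were 0.404 Gzmc UMIs in low-count barcodes at D5 and 0.316 to 0.362 in the dendritic classes, against 0.636 in NK cell-like nuclei. Per Xcl1 UMI there were 0.0315 Ifng UMIs in low-count barcodes at D5 and 0.0119 to 0.0205 in the dendritic classes, against 0.0463 in NK cell-like nuclei. Per Gzma UMI there were 0.736 Xcl1 UMIs in low-count barcodes at D0 and 0.744 to 0.922 in the dendritic classes, the highest in Ccr7+ DC-like nuclei. A hepatocyte list, taken as a second measure of free RNA, rests on 86 and 385 low-count UMIs, of which Trf gave 56 and 300. In the dendritic classes the list was at 30.4% to 124% of its low-count level at D0 and at 43.6% to 106% at D5. The low-count level of the list thus rests mostly on Trf, and the source of its UMIs was not tested.

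Dendritic nuclei with at least 2 lymphocyte markers made up 8.04% to 21.1% of the classes at D0 and 3.88% to 13.7% at D5. Without them Gzmc in cDC2-like nuclei was at 17.6 and 59.9 CPM, against 17.1 and 59.1 CPM with them. In this class they were 14.95% of nuclei with 17.5% of the UMIs of the 8 genes at D0, and 10.9% with 12.8% at D5. Their removal could therefore change the level only little. The markers counted include Klrk1, which at D5 lay above its low-count level in this class. In the Ccr7+ DC-like class these nuclei were 12.1% at D5 but held 28.2% of the UMIs of the 8 genes, and 1 nucleus held 145 of them. Nuclei with 10 or more Gzmc UMIs numbered 2 of 949 there and 0 in the other dendritic classes at D5. The Gzmc level of T cell-like nuclei at D0 was 23.4% of the low-count level, and with the pDC-like level taken off it was 20.4 and 418 CPM, a 20.5-fold difference in place of 11.2-fold.

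**Figure D4:**
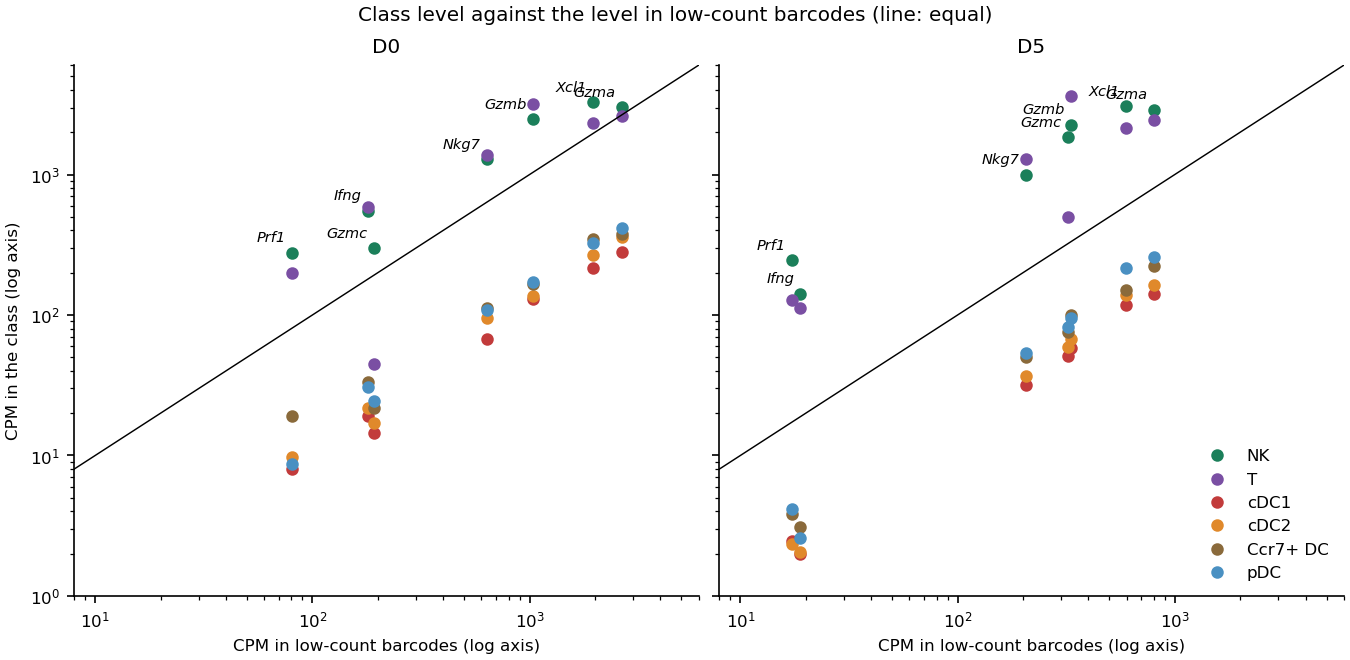
CPM of 7 effector genes in a class (vertical axis, logarithmic) against their CPM in low-count barcodes of the same day (horizontal axis, logarithmic), for D0 and D5; the line marks equal levels. All points of the dendritic classes lie below the line and run along it, all points of NK and T cell-like nuclei lie above it at D5, and at D0 T cell-like Gzma (97.5% of the low-count level) and Gzmc (23.4%) lie below it with NK cell-like Gzma (113%) close to it.

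Open chromatin was read in the same nuclei, as fragments in peaks within 10 kb of a start site that were called in both libraries. Counts are scaled per 1e6 fragments in all shared peaks of the class. Of the 142799 peaks at D0 and 147725 at D5, 89.2% and 86.3% overlapped a peak of the other library. Shared peaks near the 8 genes numbered 5 for Gzma, 2 for Gzmb, 3 for Gzmc, 3 for Gzmk, 5 for Prf1, 5 for Nkg7, 3 for Ifng and 3 for Xcl1. Near Gzmb 6 peaks were called at D0 and 3 at D5, and near Gzmk 4 and 3. Peaks called in 1 library only were not compared. A shared peak lay over the RefSeq start of every gene but Gzmk, whose shared peaks lay upstream of it, centred from −17182 to −30649 bases.

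Accessibility in the shared peaks near the genes differed little between the days in NK cell-like nuclei. Near Gzmc there were 27.6 fragments per 1e6 at D0 (158 fragments) and 25.6 at D5 (85.5 fragments), a log2 ratio of −0.11 (interval −0.51 to 0.28), while the RNA ratio was 2.62. Near Ifng there were 87.1 and 79.6 per 1e6, a log2 ratio of −0.13 (−0.35 to 0.09), while the RNA ratio was −1.96. In the peak over the Gzmc start (chromosome 14, 56234307 to 56235236) the values were 17.5 and 16.6 per 1e6, and in the peak over the Ifng start (chromosome 10, 118440497 to 118441378) 47.1 and 44.2. The upper bound for Gzmc over 10 kb, 0.28, lies below its RNA ratio.

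For all 8 genes the interval in NK cell-like nuclei included 0, with a median of −0.01 beside −0.02 over the 19209 genes with at least 20 fragments. None of the 8 reached 2-fold in either direction, beside 0.755% of all genes upwards and 2.40% downwards. Among single peaks, the one 8475 bases downstream of the Prf1 start (chromosome 10, 61305850 to 61306772) was at 27.7 and 38.1 per 1e6 (interval of the log2 ratio 0.11 to 0.81), and one upstream of Nkg7, centred at −8632 bases, had 10.5 fragments at D0 and 0 at D5. In T cell-like nuclei Xcl1 was at 68.6 and 105 fragments per 1e6 (log2 ratio 0.62, interval 0.23 to 1.01), and Gzmc at 18.3 and 28.0 (0.61, −0.16 to 1.40).

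Fragments near all 8 genes were fewer in dendritic than in NK cell-like nuclei, by folds that differed widely between genes. At D0 NK cell-like nuclei had 26.4-fold more fragments near Gzmc than cDC1-like, 60.4-fold more than cDC2-like and 114-fold more than pDC-like nuclei, values that rest on 9.0, 3.5 and 2.5 fragments. Over Ccr7+ DC-like nuclei the fold was 4.32 at D0 (8.0 fragments) and 41.0 at D5 (2.0 fragments). Near Gzmb the folds over the same 3 classes were 85.4, 70.5 and 47.4 (from 6.5, 7.0 and 14.0 fragments) and over Ccr7+ DC-like nuclei 18.0 (4.5 fragments). Near Ifng they were 125, 58.0 and 12.3 (from 6.0, 11.5 and 73.0 fragments) and 12.1 (9.0 fragments). Near Gzma they were 33.5, 45.6 and 35.1 (from 24.5, 16 and 28 fragments) and 14.9 (8.0 fragments). The folds near Prf1 were 5.99 to 14.6 and near Gzmk 2.08 (pDC-like) to 7.23 (cDC1-like), and at D5 pDC-like nuclei had 1.74-fold fewer fragments near Gzmk. In the Gzmk peak centred at −30649 bases pDC-like nuclei had 3.39 and 4.32 per 1e6 and NK cell-like nuclei 1.40 and 2.69. In the Prf1 peak centred at −7174 bases cDC1-like nuclei had 6.03 and 5.53 per 1e6. NK cell-like nuclei had 3.14 and 2.99 there, from 18 and 10 fragments. The folds near Nkg7 were 2.82 to 3.41 over the 4 dendritic classes, where the peak 6812 bases downstream of its start had 36.2 to 42.3 per 1e6 in dendritic and 50.2 in NK cell-like nuclei at D0, and 37.8 to 46.2 and 45.6 at D5, with Ccr7+ DC-like and cDC2-like nuclei slightly above NK cell-like nuclei. The peak over the Nkg7 start itself had 63.9 per 1e6 in NK cell-like and 2.20 to 5.58 in dendritic nuclei.

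In pDC-like nuclei Xcl1 had 23.5 and 22.8 fragments per 1e6, 3.40-fold and 3.72-fold less than in NK cell-like nuclei. The other dendritic classes had 26.6-fold to 33.4-fold less than NK cell-like nuclei at D0. Most of the pDC-like fragments lay in the upstream peak centred at −10237 bases (16.6 and 17.2 per 1e6 against 12.7 and 17.3 in NK cell-like nuclei). Near Ifng pDC-like nuclei had 7.08 and 6.41 per 1e6, largely in the peak 1166 bases downstream of the start (4.94 and 4.88). In cDC2-like nuclei none of the 7 genes with at least 20 fragments reached 2-fold, beside 0.263% of all genes upwards and 2.03% downwards, with a median of −0.25 beside −0.02. Gzmk was lower in that class (4.57 and 2.35 per 1e6, log2 ratio −0.96, interval −1.61 to −0.30), and Gzma in pDC-like nuclei went from 28.0 to 5.0 fragments (−1.96, −3.69 to −0.57). In cDC1-like nuclei Xcl1 went from 24.0 to 11.5 fragments (−1.38, −2.54 to −0.31) and Gzmk from 26.0 to 16.5 (−0.98, −1.96 to −0.03). The fragments near Gzmc in cDC2-like nuclei numbered 3.5 at D0 and 7.5 at D5 (0.457 and 0.335 per 1e6), while its Gzmc RNA was 3.45-fold higher at D5.

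**Figure D5:**
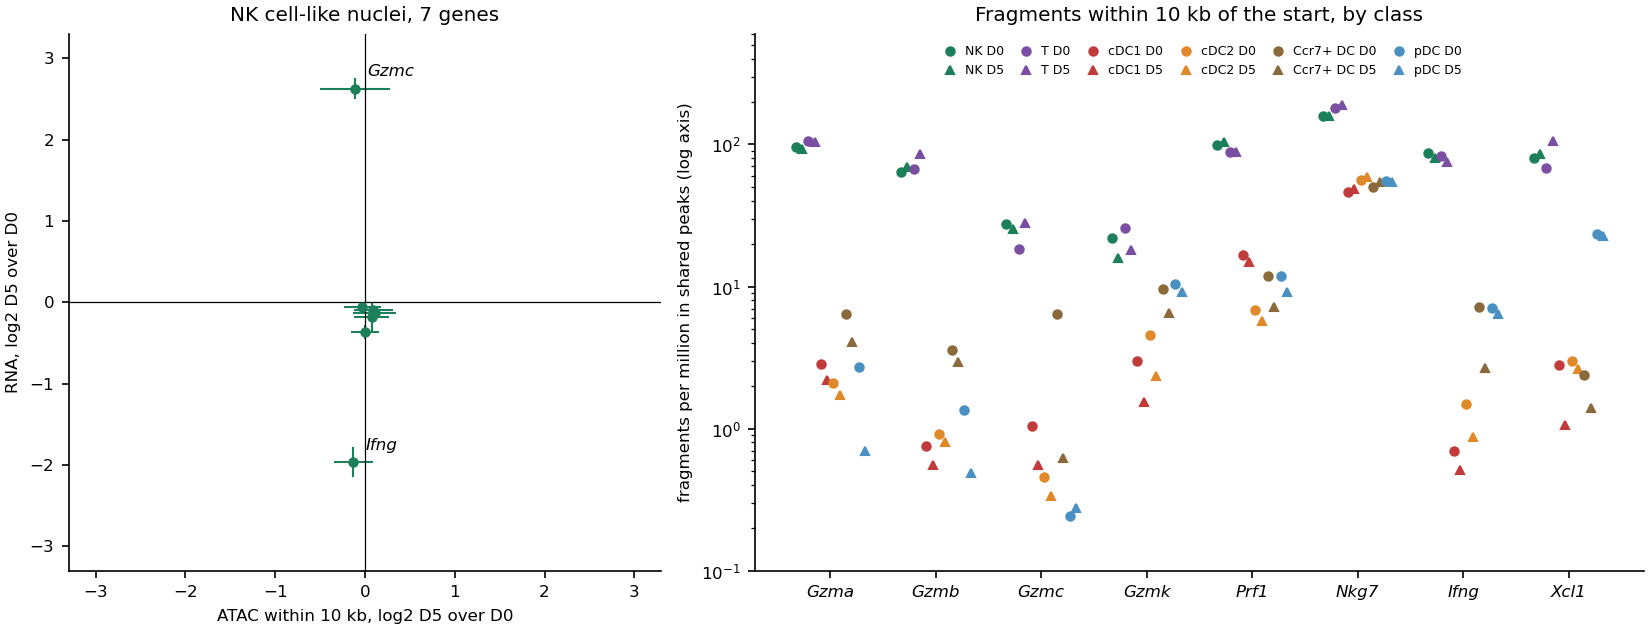
Left, RNA log2 ratio (D5 over D0) against the log2 ratio of ATAC fragments within 10 kb of the start for 7 genes in NK cell-like nuclei, with 95% counting intervals; right, fragments per 1e6 in shared peaks (logarithmic axis) near each gene by class, with circles for D0 and triangles for D5. Gzmc and Ifng lie at 2.62 and −1.96 on the RNA axis and near 0 on the ATAC axis, and dendritic classes lie below the lymphocyte classes for every gene.

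Genes whose levels followed the effector genes over the 17 sums of a class and day with at least 50 nuclei were sought among 8833 genes with at least 50 UMIs in NK and T cell-like nuclei. These sums share 2 libraries and their free RNA, so the correlations are descriptions. Gzma was followed most closely by Nkg7, Ctsw and Gimap4 (Pearson r of log2(CPM + 1) from 0.990 to 0.996), Gzmb by Nkg7, Ctsw and Gimap8, and Nkg7 by Gzma, Gzmb and Gimap4. Xcl1 was followed by Ctsw, Fasl and Gzma (0.99), Prf1 by Tcrg-C4, Itga2 and Abcb9 (0.96 to 0.97) and Ifng by Gimap4, Ncr1 and Nkg7 (0.95 to 0.96). Gzmc had no gene as close, with Ccl1 at 0.91, Ccdc184 at 0.89 and Lsm5 at 0.87.

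Further genes of killing were compared between the days in NK cell-like nuclei, where "higher" and "lower" are used for intervals that exclude 0. By that rule 8.57% of all genes in this class were higher and 22.2% lower. Of the genes named from these lists Srgn, Ctsc, Serpinb1a, Ifngr2, Xcr1, Cxcl9 and Ciita lay below their low-count level in NK cell-like nuclei on both days, and the part of free RNA in their values was not tested. None of 6 other granzymes had 20 UMIs, and Gzmf, a neighbour of Gzmc, had 1 UMI at D0 and 11 at D5. How reads shared by near-identical granzyme copies were counted was not tested. Of 10 granule and exocytosis genes 2 were higher and 5 lower, from Stx11, a syntaxin of granule fusion (33.0 and 58.9 CPM, log2 ratio 0.84, interval 0.39 to 1.29), to Ctsc, the protease that activates granzymes (195 and 116 CPM, −0.75, −0.99 to −0.51, beside 215 and 156 CPM in low-count barcodes). The granule proteoglycan Srgn had the highest level of that list (1788 and 1661 CPM). Of 4 measured granzyme inhibitors 2 were higher and 0 lower. Serpinb9, which inhibits granzyme B and stands in both lists, was at 284 and 479 CPM (0.75, 0.60 to 0.91), and Serpinb1a at 8.25 and 7.07 CPM (−0.22, −1.34 to 0.89).

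Of 4 death ligands and related genes 0 were higher and 2 lower. The cytokine Tnf was at 71.6 and 24.0 CPM (−1.58, −2.07 to −1.10), near its low-count level of 60.1 and 22.5 CPM, Lta at 4.12 and 9.42 CPM (1.19, −0.05 to 2.58) and the death ligand Fasl, highest in level, at 268 and 194 CPM. All 3 chemokines were lower, Ccl4 by the most (3404 and 2195 CPM, −0.63, −0.69 to −0.58) and Ccl5, highest in level, by the least (5296 and 5097 CPM, −0.06, −0.09 to −0.02). The T cell-like class had 3 of 3 chemokines and 3 of 3 measured death ligands lower, beside 14.7% of all genes, and 2 of 3 measured inhibitors higher, beside 6.30%. Of its 10 granule and exocytosis genes 1 was higher and 2 lower, and of 9 effector transcription factors 0 were higher and 6 lower. Of 6 measured upstream cytokines and receptors 0 were higher and 1 lower, and of 3 receptors of the secreted proteins 0 were either.

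Of 9 effector transcription factors 1 was higher and 6 lower, from Id2 (1315 and 1439 CPM, 0.13, 0.05 to 0.21), also highest in level, to Prdm1 (49.5 and 22.1 CPM, −1.16, −1.70 to −0.64). Among 8 measured upstream cytokines and receptors 1 was higher and 3 lower. Il2ra, the alpha chain of the interleukin 2 receptor, was at 47.9 and 80.1 CPM (0.74, 0.37 to 1.12), Il15 at 12.4 and 4.24 CPM (−1.54, −2.83 to −0.39), and Il2rb, highest in level, at 1161 and 1119 CPM (−0.05, −0.14 to 0.03). Ratios between −0.19 and 0 in these lists lie above 0 after TMM scaling, as for Srgn, Ccl5 and Il2rb.

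The receptors and responders of the secreted members were followed into the dendritic classes. Xcr1, the receptor of Xcl1, was at 284 and 194 CPM in cDC1-like nuclei (log2 ratio −0.55, interval −0.65 to −0.45), and in NK cell-like nuclei at 22.7 and 11.8 CPM (−0.95, −1.71 to −0.21). The receptor subunit Ifngr1 was at 539 and 432 CPM in cDC1-like and at 309 and 425 CPM in cDC2-like nuclei (0.46, 0.37 to 0.55), and in NK cell-like nuclei at 645 and 676 CPM (0.07, −0.04 to 0.18), with Ifngr2 at 13.9 and 17.0 CPM (0.29, −0.47 to 1.06). Of the 10 genes listed as responding to interferon gamma, 10 of 10 measured were lower at D5 in cDC1-like (beside 36.5% of all genes), 8 of 9 in cDC2-like (28.8%), 7 of 9 in Ccr7+ DC-like (14.1%), 6 of 9 in pDC-like (22.0%), 5 of 9 in NK cell-like and 5 of 9 in T cell-like nuclei.

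At least 2-fold lower were 8 of 10 responders in cDC1-like, 5 of 9 in cDC2-like, 5 of 9 in Ccr7+ DC-like and 2 of 9 in pDC-like nuclei, with the shares of all genes given above (8.55%, 8.44%, 5.27% and 3.49%). The chemokine Cxcl9 was at 121 and 25.0 CPM in cDC2-like nuclei (−2.27, −2.45 to −2.09), and at 41.2 and 9.89 CPM in NK cell-like nuclei, where it had the lowest ratio of the list (−2.06, −2.83 to −1.35). Its level in low-count barcodes was 92.4 and 13.6 CPM. Gbp2, a guanylate-binding protein, was at 32.5 and 4.57 CPM in cDC2-like nuclei (−2.83, −3.23 to −2.43). The class II transactivator Ciita had the highest ratio of the list in NK cell-like nuclei (25.3 and 37.2 CPM, 0.56, 0.03 to 1.10), and Irf1 the highest level there (247 and 158 CPM). Whether less Ifng RNA and fewer responder transcripts are linked was not tested.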

How the data were processed

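Nuclei of sorted liver cells were read for RNA and ATAC in 1 library at D0 and 1 at D5. The authors deposited raw counts: UMIs per gene for called barcodes, and a joint matrix of gene UMIs and peak cut sites for all barcodes, with peaks called per library. The submitters' processing notes name Cell Ranger ARC 2.0.2 and mm10, while the RNA headers name Cell Ranger 6.0.2; other settings are not given in the sources used here. The RNA layers held 44496348 and 94374499 UMIs (medians of 1799 and 2790 per barcode). The D5 joint matrix was joined to the RNA by identical gene counts (27873 of 27873 barcodes).

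Barcodes needed 1000 or more UMIs, of which mitochondrial genes could take 10%, and those with a Scrublet score of 0.2 or higher were removed (23.1% at D0, 25.4% at D5). Nuclei were clustered in scanpy 1.11.5 (2000 variable genes, 30 components, 15 neighbours, Leiden resolution 1.0, 0.5 for lymphocytes) without the effector and list genes. A class needed at least 3 markers raised 2-fold and either 1.5 times the share of raised markers of the next class or a share of at least 0.5 and 1.25 times the next; these thresholds were set with the clusters in view. UMIs were summed per class and scaled to CPM. Levels have exact Poisson, shares exact binomial (Clopper-Pearson) and ratios exact conditional 95% intervals. Cut sites were divided by 2 to give fragments. The procedure for ratios was tested on simulated data. No count model or test was used, since each day is 1 library.

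The genes, lists and motifs were chosen with earlier results of these data known. Named from the other lists were the genes with the highest and lowest D5 over D0 ratio and with the highest level in NK cell-like nuclei; Gzmf, Gbp2, the subclusters and the single peaks were picked after their values were seen. Alternatives were TMM scaling, no removal of doublets, at least 2000 UMIs, thinning, no minimum of UMIs, Leiden resolution 0.5, removal of mixed nuclei, other windows and overlaps of peaks, and barcodes with 1 to 50 UMIs as free RNA. Leaving out 1 subcluster and taking off the pDC-like level were added after seeing the data.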

Additional observations from a re-analysis of the deposited data

Results flagged for a closer look

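The D5 over D0 difference of Gzmb went in opposite directions in pairs of classes, with counting intervals on opposite sides of 0. These differences between classes were not tested, since each day is 1 library. Gzmb was higher at D5 in T cell-like nuclei (log2 ratio 0.17) and lower in NK cell-like nuclei (−0.13), a difference of −0.30 for NK cell-like minus T cell-like. Under TMM scaling NK cell-like nuclei had 0.060 and T cell-like nuclei 0.37, so the signs were then alike. Against the dendritic classes the T cell-like ratio was higher by 1.34 (cDC1-like), 1.19 (cDC2-like), 0.90 (Ccr7+ DC-like) and 1.04 (pDC-like). The Ccr7+ DC-like ratio of −0.72 moved to −0.14 without the removal of doublets and to −1.22 with thinning. In the dendritic classes Gzmb was below its level in low-count barcodes on both days.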

How the results depend on the processing

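Of 56 recomputed summary values, 49 moved by less than the counting intervals. TMM scaling moved the median log2 ratio of the effector genes from −0.13 to 0.0599 in NK cell-like, from −0.09 to 0.10 in T cell-like, from −1.08 to −0.76 in cDC1-like and from −1.12 to −0.86 in cDC2-like nuclei. Nuclei with at least 2000 UMIs gave 0.10 in NK cell-like and −0.91 in cDC2-like nuclei. The number of the 8 genes with a higher share of NK cell-like nuclei at D5 was 3 without thinning and 1 with it. The sign of single genes turned in NK cell-like nuclei under TMM scaling (Gzma 0.13, Gzmb 0.0599, Prf1 0.0058, Xcl1 0.10), with at least 2000 UMIs (Gzma 0.35, Gzmb 0.20, Prf1 0.10) and with the pDC-like level taken off (Gzma 0.0154). In T cell-like nuclei Xcl1 turned under TMM scaling (0.0727) and with at least 2000 UMIs (0.0005), Gzma (0.10) and Nkg7 (0.12), whose intervals included 0, under TMM scaling, and Nkg7 also with thinning (0.081). The cause of these moves was not tested. Over 8 alternatives Gzmc stayed between 2.59 and 2.81 in NK cell-like and between 3.11 and 4.44 in T cell-like nuclei, and Ifng between −2.04 and −1.77 and between −2.42 and −2.21. Some alternatives could move these values little or not at all. Leaving out the minimum of UMIs cannot change the ratio of a single gene. The NK cell-like class had 1417 and 1090 nuclei in the main setting. It had 1424 and 1091 at a resolution of 0.5 and 1416 and 1061 without the removal of doublets. Removing NK or T cell-like nuclei with 2 dendritic markers left too few UMIs, since 99.9% to 100% of them held such markers. No paired analysis was possible because each day is 1 library. The 24 Gzmc UMIs of T cell-like nuclei at D0 limit the precision of that ratio.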
